A study of Mus musculus with 9 samples.

Results

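The genes described here are the nuclear genes for subunits of the mitochondrial respiratory chain and of ATP synthase. They were chosen by symbol (Nduf, Sdh, Uqcr, Cyc1, Cox4 to Cox8 and Atp5 genes, with pseudogenes left out). Of 19938 genes with a probe set of a single symbol, 83 were members. They comprised 34 genes of complex I, 4 of complex II, 9 of complex III, 19 listed with complex IV and 17 of ATP synthase. Ndufb1, Ndufb4, Cox7c and the subunits encoded in mitochondrial DNA were not analysed here. Liver RNA was hybridised to Affymetrix gene arrays, with 1 array for each of 9 mice in 3 groups of 3. The rescue mice were Clock-D19 mutants that had received, at week 10, 35 µg of a pLIVE plasmid encoding wild-type Clock through a hydrodynamic injection into the tail vein. The Clock mutant mice carried Clock-D19, and the wild-type mice were C57BL/6J. From the age of 10 weeks every group ate food with 45% fat during 5 weeks, under light and dark phases of 12 h each, and livers were taken at Zeitgeber time 10. No diet other than the high-fat one and no injected control of the mutant or wild-type mice is described in the labels, so plasmid and injection cannot be told apart in comparisons with rescue mice. The pLIVE vector drives its insert from an albumin promoter, which is active in hepatocytes.

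The respiratory chain passes electrons from NADH (complex I) and succinate (complex II) through complex III and cytochrome c to oxygen at complex IV. Complexes I, III and IV pump protons as they do so, and ATP synthase lets the protons flow back to make ATP. Each complex except complex II combines a few subunits encoded in mitochondrial DNA with many encoded in the nucleus, and in liver the chain supplies ATP for gluconeogenesis and urea synthesis and oxidises the electrons released by fatty acid breakdown. CLOCK pairs with BMAL1 to activate genes with E-box motifs, and the Clock-D19 protein pairs but activates poorly.

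Values are log2 expression, on which a difference of 1 is a doubling, and tests compared a probe set only with itself in other groups, since brightness also depends on the probes. The 9 arrays correlated with each other at 0.976 to 0.993 over all genes. Clock itself read 9.41 to 10.33 on rescue arrays, 9.89 to 10.88 on Clock mutant arrays and 9.24 to 9.97 on wild-type arrays; nothing in the files shows whether its probe set tells the mutant transcript and the plasmid's apart, so it does not check the labels. A gene was called dim in a group when its mean lay below the 95th percentile of olfactory receptor genes, which serve the sense of smell (5.91 in rescue, 5.91 in Clock mutant and 5.84 in wild-type livers). Of the members, 6 were dim in all 3 groups. The members' median level was 9.13 in rescue, 9.35 in Clock mutant and 9.14 in wild-type livers, against medians of 6.17, 6.23 and 6.15 in the same groups over all genes.

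In Clock mutant livers many genes of the chain read higher than in wild-type livers. With limma's test and Benjamini-Hochberg adjustment over all 19938 genes, 26 of the 83 members (31.3%) rose at an adjusted p under 0.05, where 6.37% of all genes rose. None of the 83 fell, where 9.02% of all genes fell. At an unadjusted p under 0.05, 1 of 83 was lower, as were 13.8% of all genes. The median difference of the members was 0.32, against 0.07 over all genes, and single members lay between −0.26 and 0.99. On 42 members all 3 Clock mutant arrays read above all 3 wild-type arrays (20.3% of all genes did so), and on 4 members they read below them (15.4% of all genes). The count moved when single animals were left out. It was 11 (13.3%) without Clock mutant replicate 1, 16 (19.3%) without Clock mutant replicate 3 and 9 (10.8%) without wild-type replicate 3. In those settings 3.48%, 3.92% and 2.67% of all genes rose, so calls became rarer over all genes as well. Without Clock mutant replicate 2 the count was 33 (39.8%), where 4.84% of all genes rose. With each array centred on its median, 14 members (16.9%) rose and none fell, where 3.06% of all genes rose and 11.4% fell.

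**Figure D1:**
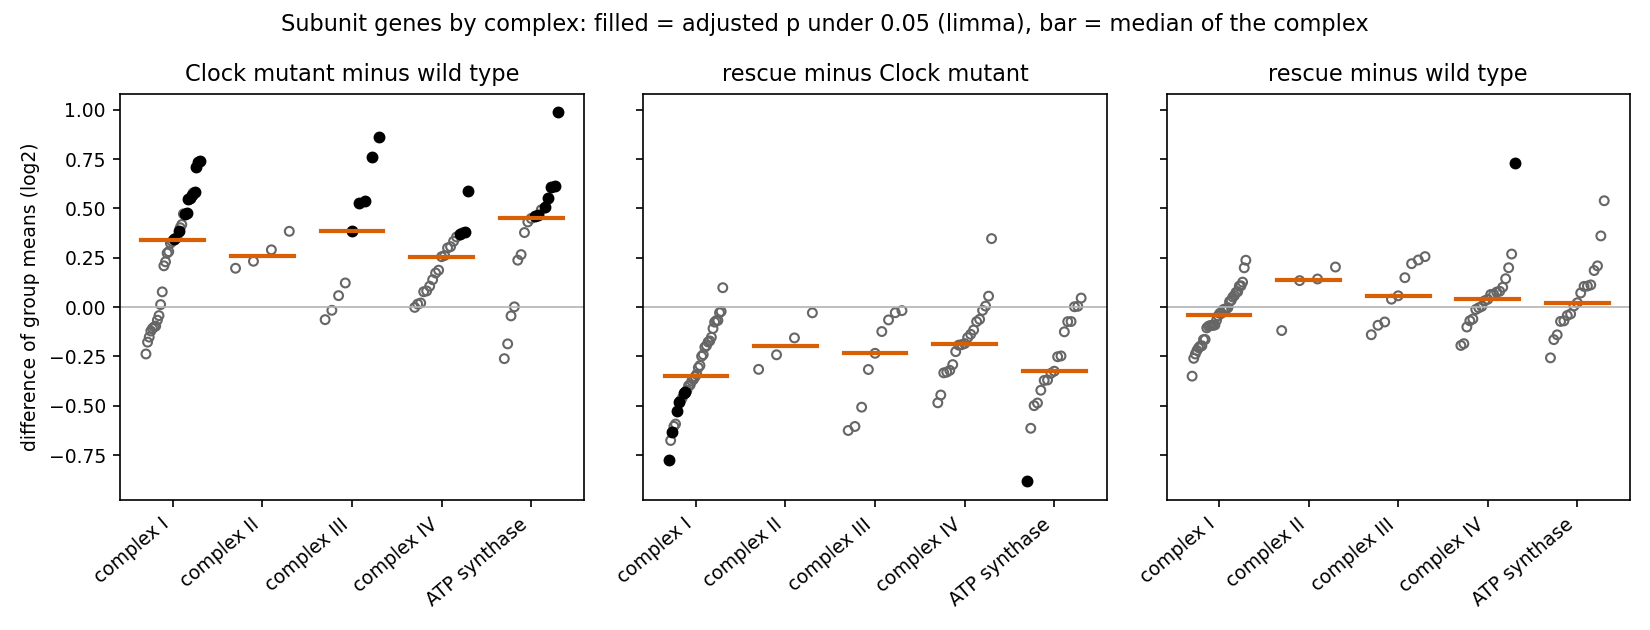
Each point is a member gene, placed by its log2 difference in Clock mutant minus wild type, rescue minus Clock mutant and rescue minus wild type and grouped by complex; filled points are called genes and bars are medians of the complex. In Clock mutant against wild type the points reach 0.99 and the 26 called genes all lie above 0.

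The 26 genes were spread over complex I (11 of 34 rose, median difference 0.34), complex III (5 of 9, median 0.38), complex IV (3 of 19, median 0.26) and ATP synthase (7 of 17, median 0.45). None of the 4 genes of complex II passed the test in limma (median 0.26). Without adjustment, at a p under 0.05, 1 of the 4 was higher, as were 16.9% of all genes. Differences between complexes in these counts were not tested. The calls of 8 genes held in all 16 alternative settings: Uqcrq, Uqcr11, Atp5e, Atp5g1, Atp5md, Atp5o, Ndufb7 and Cox6b1. The calls of the other 18 were lost in at least 1 setting and in at most 8.

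Promoters of 67 members are in the RefSeq promoter table (GRCm38.p6), as windows of 300 bases with 250 before and 50 after the annotated start. Both strands were searched for motifs of factors known to act on respiratory chain genes, and for the E-box. The NRF1 motif, written GCGCA, then any base, then GCGC, was present in 23.9% of the members, against 7.87% of all genes tested that have a window. The ETS motif CCGGAAG, which GABPA (also called NRF2 in this setting) recognises, was in 25.4% against 13.6%, and the YY1 motif AAGATGGCG in 10.4% against 2.29%. The motif TCAAGGTCA of oestrogen-related receptors was in 2.99% (2 genes) against 0.347%. The E-box CACGTG was in 8.96% of members against 9.52% of genes tested. Each gene counted once, however many matches it held and also where a site matched on both strands. A match is a run of letters and does not show that a factor binds. Of the 23 members with a window that rose in Clock mutant livers, 34.8% (8 genes) held the NRF1 motif, against 18.2% (8 genes) of the other 44. The ETS motif was in 30.4% of the risers against 22.7%, and the E-box in 8.7% against 9.09%. For the YY1 motif the shares were 8.7% against 11.4%, and for the oestrogen-related receptor motif 0% against 4.55%. These shares were not tested. The windows below show the different arrangements, with motif matches in capitals. The first 4 belong to genes that rose, from the ATP synthase c-ring (an E-box), complex I (an ETS match), complex III (NRF1 matches) and the ATP synthase stalk (an NRF1 match on the reverse strand), and the last to Sdha, which has 3 NRF1 matches and did not pass the test.
Atp5g1, chr11:96075582-96075881, minus strand: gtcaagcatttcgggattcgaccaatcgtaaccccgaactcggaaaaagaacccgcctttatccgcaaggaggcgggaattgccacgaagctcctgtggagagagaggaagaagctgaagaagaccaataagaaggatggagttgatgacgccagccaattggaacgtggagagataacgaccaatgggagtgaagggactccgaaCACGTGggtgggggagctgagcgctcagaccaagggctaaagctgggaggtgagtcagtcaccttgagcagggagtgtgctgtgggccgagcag
Ndufb7, chr8:83566508-83566807, plus strand: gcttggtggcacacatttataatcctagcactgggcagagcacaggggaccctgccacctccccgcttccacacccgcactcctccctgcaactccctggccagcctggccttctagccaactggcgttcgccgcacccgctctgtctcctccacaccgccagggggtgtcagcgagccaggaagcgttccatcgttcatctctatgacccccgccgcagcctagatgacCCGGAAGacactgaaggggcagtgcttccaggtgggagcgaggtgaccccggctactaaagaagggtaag
Uqcrc1, chr9:108936398-108936697, plus strand: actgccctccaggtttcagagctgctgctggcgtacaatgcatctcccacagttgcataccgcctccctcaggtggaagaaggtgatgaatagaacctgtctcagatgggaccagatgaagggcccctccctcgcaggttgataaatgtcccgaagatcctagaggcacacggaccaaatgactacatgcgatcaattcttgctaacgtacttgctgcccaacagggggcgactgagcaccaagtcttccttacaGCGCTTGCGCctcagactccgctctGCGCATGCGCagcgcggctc
Atp5o, chr16:91931581-91931880, minus strand: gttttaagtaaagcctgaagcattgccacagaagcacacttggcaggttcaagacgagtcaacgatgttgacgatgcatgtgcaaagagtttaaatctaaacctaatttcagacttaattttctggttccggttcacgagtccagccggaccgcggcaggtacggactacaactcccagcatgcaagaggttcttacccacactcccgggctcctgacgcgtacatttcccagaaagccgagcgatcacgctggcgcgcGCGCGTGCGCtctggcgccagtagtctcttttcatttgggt
Sdha, chr13:74350191-74350490, minus strand: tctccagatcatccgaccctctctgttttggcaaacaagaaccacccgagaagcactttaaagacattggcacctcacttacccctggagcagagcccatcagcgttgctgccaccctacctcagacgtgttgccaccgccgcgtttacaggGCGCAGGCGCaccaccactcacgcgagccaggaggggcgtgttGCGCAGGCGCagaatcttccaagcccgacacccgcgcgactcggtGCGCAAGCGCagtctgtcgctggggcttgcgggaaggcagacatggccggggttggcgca

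Complex I takes electrons from NADH and hands them to ubiquinone. Among its genes the largest rise in Clock mutant livers was that of Ndufb7, an accessory subunit of the membrane arm on the intermembrane-space side. Ndufb7 read 8.36, 7.79 and 7.93 on the rescue arrays, 9.02, 8.48 and 8.91 on the Clock mutant arrays and 8.08, 8.19 and 7.91 on the wild-type arrays. The Clock mutant arrays lay above both other groups, which overlapped each other. The difference between Clock mutant and wild type was 0.74 ± 0.16 (SE, 1.67-fold; adjusted p = 0.00664). Ndufa2, an accessory subunit of the NADH-oxidising arm, read 8.60, 7.86 and 8.45 in Clock mutant livers and 7.49, 7.72 and 7.49 in wild-type livers, a difference of 0.73 ± 0.18 (1.66-fold; adjusted p = 0.0132). Its second Clock mutant array lay close to the highest wild-type array, without overlap. Ndufs5, an accessory subunit of the membrane arm, read 9.39, 8.88 and 9.14 in rescue, 9.54, 9.78 and 9.51 in Clock mutant and 8.99, 9.19 and 8.89 in wild-type livers. It was 1.5-fold higher in Clock mutant than in wild-type livers (0.58 ± 0.14, adjusted p = 0.0101), and all its Clock mutant values lay above all others. The other called accessory subunits were Ndufa7 (0.71), Ndufa3 (0.57), Ndufa11 (0.55), Ndufv3 (0.48), Ndufb11 (0.47), Ndufa8 (0.39) and Ndufa5 (0.35), with adjusted p between 0.0114 and 0.0337. Another, dimmer probe set of Ndufb11 differed by 0.33, with overlapping Clock mutant and wild-type arrays.

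There were 6 measured nuclear core subunits, which hold the flavin and the iron-sulphur clusters or line the path of the electrons. Of these 1 rose (16.7%, where 6.37% of all genes rose), and the median difference between Clock mutant and wild type was 0.29. Core and accessory subunits were not tested against each other. The riser was Ndufs7, whose iron-sulphur cluster passes electrons to ubiquinone. It read 8.21, 7.99 and 8.01 in rescue, 8.51, 8.50 and 8.47 in Clock mutant and 7.98, 8.20 and 7.65 in wild-type livers. The 3 Clock mutant values lay within a narrow band above both other groups (0.55 ± 0.13 over wild type, 1.46-fold, adjusted p = 0.0111). Ndufs1, the largest subunit and a carrier of iron-sulphur clusters, read 9.81, 9.45 and 9.47 in rescue, 9.58, 9.33 and 9.53 in Clock mutant and 9.74, 9.41 and 9.62 in wild-type livers. All 3 groups of Ndufs1 overlapped (−0.11 ± 0.13 for Clock mutant against wild type, adjusted p = 0.594). Ndufv1, which binds NADH and the flavin, differed by 0.47 ± 0.18 with overlapping groups (adjusted p = 0.0973). Ndufs8 differed by 0.35 (adjusted p = 0.0648) and Ndufs3 by 0.23 (adjusted p = 0.182), both without overlap, and Ndufv2 by −0.12 (adjusted p = 0.441). Of the core subunits, 3 were higher at an unadjusted p under 0.05, where 16.9% of all genes were.

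Complex II oxidises succinate and is also an enzyme of the citric acid cycle. Sdha, its flavoprotein, read 11.05, 10.81 and 11.10 in rescue, 11.05, 10.91 and 11.08 in Clock mutant and 10.90, 10.69 and 10.75 in wild-type livers. The Clock mutant arrays of Sdha lay just above the wild-type arrays (0.23 ± 0.11, adjusted p = 0.173). Sdhd, a membrane anchor, read 9.14, 8.73 and 8.93 in rescue, 9.24, 8.97 and 9.31 in Clock mutant and 8.87, 8.83 and 8.68 in wild-type livers. The Clock mutant values of Sdhd lay above the wild-type ones, and the difference of 0.38 ± 0.13 missed the threshold (adjusted p = 0.056). The iron-sulphur subunit Sdhb (0.20, adjusted p = 0.268) and the second anchor Sdhc (0.29, adjusted p = 0.181) had overlapping Clock mutant and wild-type arrays.

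Complex III moves electrons from ubiquinol to cytochrome c. Of its 9 genes 5 rose in Clock mutant livers (55.6%, where 6.37% of all genes rose). The 5 did not include Cyc1 and Uqcrfs1, the only genes for redox subunits among the 9. Uqcrq, which binds next to cytochrome b, read 8.51, 7.67 and 8.18 in rescue, 8.90, 8.59 and 8.75 in Clock mutant and 7.96, 8.05 and 7.64 in wild-type livers. Its Clock mutant values exceeded all 6 others, and the rescue values overlapped the wild-type values. The difference between Clock mutant and wild type was 0.86 ± 0.18 (1.82-fold; adjusted p = 0.00472), the smallest adjusted p among the members. Uqcr11, a small accessory subunit, read 7.19, 6.74 and 6.96 in rescue, 7.63, 7.11 and 7.67 in Clock mutant and 6.92, 6.71 and 6.49 in wild-type livers (Clock mutant over wild type 0.76 ± 0.16, 1.70-fold, adjusted p = 0.00603). Its second Clock mutant array fell inside the range of the rescue arrays and above every wild-type array. Uqcrh, the hinge protein that docks cytochrome c1 (0.54, adjusted p = 0.029), Uqcr10 (0.53, adjusted p = 0.0487) and the core protein Uqcrc1 (0.38, adjusted p = 0.0398) also rose. The Rieske iron-sulphur protein Uqcrfs1 read 9.80, 9.82 and 9.77 in rescue, 9.85, 9.77 and 9.86 in Clock mutant and 9.83, 9.92 and 9.92 in wild-type livers. These 9 values lay close together, and Clock mutant minus wild type was −0.06 ± 0.09 (adjusted p = 0.681). Cytochrome c1, encoded by Cyc1, differed by 0.12 (adjusted p = 0.53), and the core protein Uqcrc2 by 0.06 (adjusted p = 0.719).

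Complex IV, cytochrome c oxidase, reduces oxygen to water, and its catalytic centre is encoded in mitochondrial DNA. Cox6b1, which faces the intermembrane space near the cytochrome c site, read 11.52, 11.20 and 11.30 in rescue, 11.75, 11.45 and 11.78 in Clock mutant and 11.28, 10.91 and 11.03 in wild-type livers. The Clock mutant arrays lay above the wild-type arrays, with rescue arrays between or overlapping (Clock mutant over wild type 0.59 ± 0.13, 1.5-fold, adjusted p = 0.00761). Cox4i1, the main isoform of the regulatory subunit 4 in most tissues, read 8.99, 9.07 and 9.07 in rescue, 8.73, 8.54 and 8.82 in Clock mutant and 8.16, 8.40 and 8.38 in wild-type livers. For Cox4i1 the 3 groups did not overlap, and rescue was the highest. Clock mutant over wild type was 0.38 ± 0.11 (1.30-fold, adjusted p = 0.0292). Cox7a1, the heart and muscle isoform of its subunit, rose by 0.37 ± 0.11 (adjusted p = 0.0289) but was dim in every group. It read 5.83, 5.72 and 5.61 in Clock mutant livers and 5.28, 5.32 and 5.43 in wild-type livers, all below the olfactory receptor percentile. The other isoforms that belong to heart, muscle, testis or hypoxic tissue did not pass the test: Cox6b2 (0.02), Cox7b2 (0.08), Cox8b (0.14), Cox8c (0.08) and Ndufa4l2 (0.26) were dim throughout, and Cox4i2 (0.17) and Cox6a2 (0.26) lay just above that level. In striated muscle markers, 1 of 13 rose in Clock mutant against wild-type livers (7.69%, near the 6.37% of all genes that rose). The log2 of their summed unlogged levels was 9.34 to 9.58 in rescue, 9.60 to 9.74 in Clock mutant and 9.39 to 9.46 in wild-type livers. In these groups 8, 6 and 7 of the 13 were dim. The part of the muscle markers in the Cox7a1 result was not tested.

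**Figure D2:**
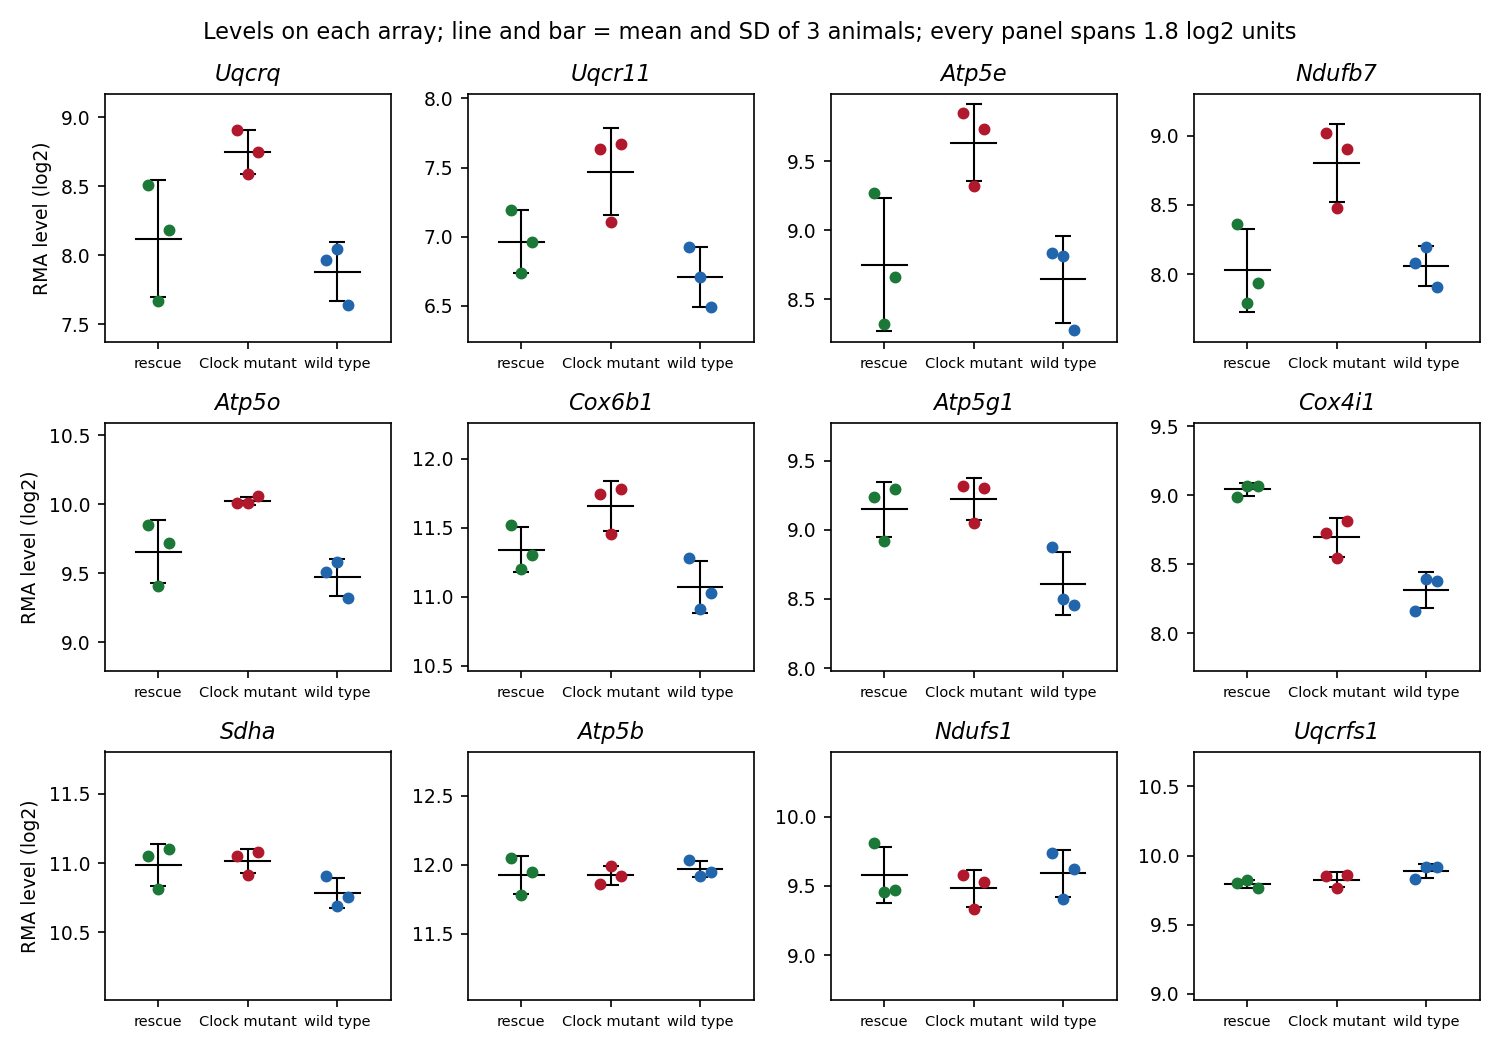
Log2 expression of 12 members on each array, with a point per mouse and a line and bar at the mean and SD of each group (rescue, Clock mutant, wild type). In the panels of Uqcrq, Ndufb7 and Atp5o the Clock mutant points lie above both other groups, in the panel of Cox4i1 the rescue points are the highest, and in the panels of Atp5b, Ndufs1 and Uqcrfs1 the groups overlap or nearly do.

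ATP synthase has a catalytic head (F1) and a proton-driven ring in the membrane (Fo), joined by a central and a peripheral stalk. Atp5e, the epsilon subunit of the central stalk, read 9.27, 8.32 and 8.66 in rescue, 9.85, 9.32 and 9.73 in Clock mutant and 8.84, 8.82 and 8.28 in wild-type livers. All Clock mutant values of Atp5e exceeded all others, and the Clock mutant minus wild type difference of 0.99 ± 0.21 (1.98-fold, adjusted p = 0.00666) was the largest among the 83 members. Atp5o, the peripheral-stalk subunit that confers oligomycin sensitivity, read 9.85, 9.41 and 9.72 in rescue, 10.01, 10.01 and 10.06 in Clock mutant and 9.51, 9.58 and 9.32 in wild-type livers. Its Clock mutant values lay above both other groups (0.55 ± 0.12 over wild type, 1.47-fold, adjusted p = 0.00711). Atp5md, a small membrane subunit, read 10.66, 10.31 and 10.30 in rescue, 10.51, 10.75 and 10.74 in Clock mutant and 9.93, 10.04 and 10.22 in wild-type livers. Both rescue and Clock mutant arrays of Atp5md lay above the wild-type arrays (Clock mutant over wild type 0.61 ± 0.13, 1.52-fold, adjusted p = 0.00495). A dimmer probe set of Atp5md differed by 0.47 without overlap, and another by 0.30 with overlapping Clock mutant and wild-type arrays. On both of these, rescue arrays overlapped wild-type arrays. The stalk subunit Atp5h (0.46, adjusted p = 0.0441) and the membrane subunit Atp5j2 (0.46, adjusted p = 0.0325) rose as well.

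The c-ring turns as protons pass, and 3 genes, Atp5g1, Atp5g2 and Atp5g3, encode the same mature c subunit. Atp5g1 read 9.23, 8.92 and 9.29 in rescue, 9.31, 9.05 and 9.30 in Clock mutant and 8.87, 8.50 and 8.46 in wild-type livers. Rescue and Clock mutant overlapped, and both lay above wild type (Clock mutant over wild type 0.61 ± 0.14, 1.53-fold, adjusted p = 0.00833). Atp5g2 read 8.57, 8.19 and 8.25 in rescue, 8.99, 8.64 and 8.84 in Clock mutant and 8.40, 8.44 and 8.11 in wild-type livers. Here the rescue arrays overlapped the wild-type arrays and the Clock mutant arrays were highest (0.51 ± 0.13 over wild type, adjusted p = 0.0205). Atp5g3 read 11.79, 11.44 and 11.47 in rescue, 11.93, 11.87 and 11.89 in Clock mutant and 11.68, 11.70 and 11.53 in wild-type livers, and its difference of 0.27 ± 0.11 between Clock mutant and wild type did not pass (adjusted p = 0.126). The catalytic beta subunit gene Atp5b read 12.05, 11.78 and 11.94 in rescue, 11.86, 11.99 and 11.92 in Clock mutant and 12.03, 11.92 and 11.95 in wild-type livers. No group of Atp5b stood apart (−0.04 ± 0.10, adjusted p = 0.801). Its partner Atp5a1, the alpha subunit, differed by 0.24 ± 0.11 without overlap (adjusted p = 0.16). Atp5pb, the b subunit of the peripheral stalk, read 10.70, 10.71 and 10.81 in Clock mutant and between 10.98 and 11.02 in the 3 wild-type livers, so that every Clock mutant array lay lower, and its difference of −0.26 ± 0.10 had an adjusted p of 0.0998. With a trended, robust prior in limma Atp5pb was called as fallen. Another, dimmer probe set of Atp5pb differed by only −0.06, with overlapping Clock mutant and wild-type arrays.

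The 83 members are short genes: their median span from start to end was 7.18 kb, against 17.7 kb for all genes. Span moved with the comparison across all genes. In the shortest quintile of genes, 8.31% rose and 1.69% fell in Clock mutant against wild type, and in the longest quintile 3.68% rose and 17% fell. Among the 25 members in the shortest quintile 10 rose (median difference 0.37, against 0.12 for all genes of that quintile). Among the 37 in the next quintile 13 rose, where 8.26% of all genes did (median 0.36 against 0.12). Among the 15 members in the middle quintile 3 rose, where 7% of all genes did (median 0.06 against 0.08). None of the 6 longer members passed the test. In their quintiles, the shorter first, 4.71% and 3.68% of all genes rose, and 13.6% and 17% fell. With the trend on span removed from every array, 13 of 83 members rose, which is 15.7% against 4.08% of all genes, and 1 fell (9.18% of all genes), Ndufc1, with a difference of −0.36 after removal (adjusted p = 0.035). The members' median was then 0.22, against 0.02 over all genes.

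**Figure D3:**
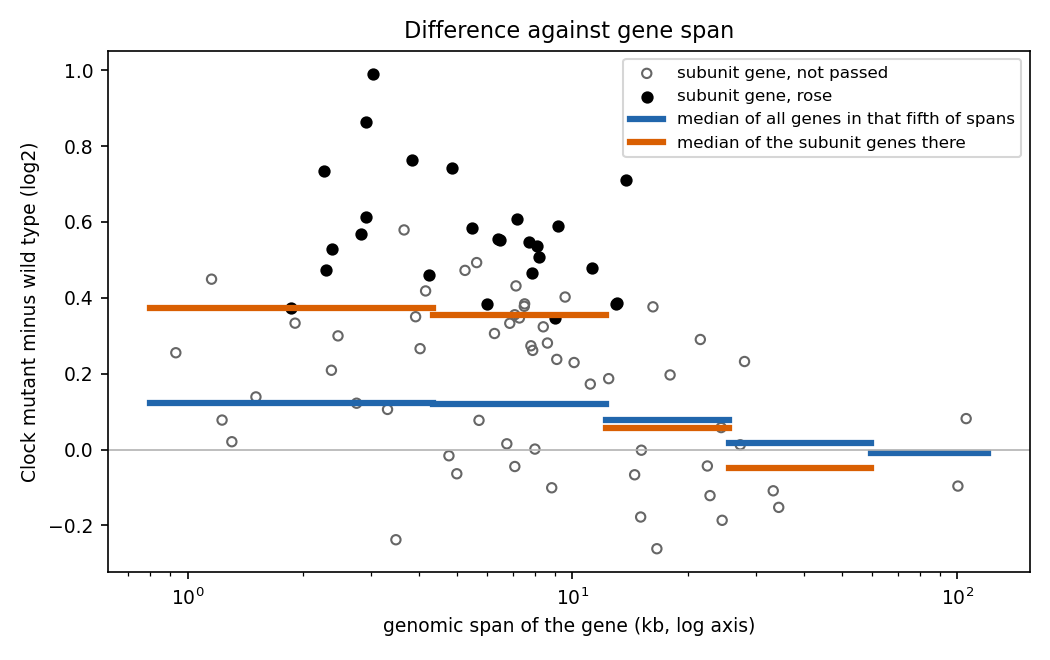
Clock mutant minus wild type difference (log2) of each member gene against its genomic span (kb, log axis), with filled points for called genes. Bars are medians of all genes and of members by quintile of span. The longest quintile, with 2 members, has no bar for members. The members' median is 0.37 in the shortest quintile, where the median over all genes is 0.12, and 0.06 in the middle quintile, where it is 0.08.

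In rescue livers the members read lower than in Clock mutant livers, and few passed the test. Of 83 members, 7 fell (8.43%, where 1.2% of all genes fell) and none rose (2.61% of all genes rose). At an unadjusted p under 0.05, 1 of 83 members was higher, as were 9.65% of all genes. The median difference was −0.25, against −0.05 over all genes, and members ranged from −0.88 up to 0.35. On 26 members all 3 rescue arrays read below all 3 Clock mutant arrays (14% of all genes did so), and on 1 member they read above them (11.8% of all genes). This comparison and that of Clock mutant with wild type share the Clock mutant arrays. None of the 7 calls held in all alternatives. The count was 0 without Clock mutant replicate 1, 0 without rescue replicate 2, 0 without rescue replicate 3 and 1 without Clock mutant replicate 3, where 0.231%, 0.256%, 0.266% and 0.406% of all genes fell, so that calls became rarer over all genes as well. It was 20 (24.1%) without rescue replicate 1, where 1.29% of all genes fell.

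Of the 7 genes, 6 were accessory subunits of complex I. Ndufb7, whose array values stand above, fell by 0.77 ± 0.16 on the log2 scale (adjusted p = 0.0206). Ndufa3, a small subunit of the membrane arm, read 8.75, 8.34 and 8.59 in rescue livers and 9.26, 9.25 and 9.07 in Clock mutant livers (−0.63 ± 0.14, adjusted p = 0.0273). Ndufa11, another subunit of the membrane arm, read 8.38, 7.91 and 8.36 in rescue livers and 8.76, 8.69 and 8.78 in Clock mutant livers (−0.53 ± 0.14, adjusted p = 0.0488). In each of these genes every rescue array lay below every Clock mutant array. Ndufa8, a cysteine-motif subunit of the intermembrane-space side, read 8.28, 8.02 and 8.19 in rescue livers and 8.69, 8.58 and 8.65 in Clock mutant livers (−0.48 ± 0.11, adjusted p = 0.0265). Ndufa5, an accessory subunit of the arm that reaches into the matrix, read 9.52, 9.40 and 9.30 in rescue livers and 9.93, 9.75 and 9.85 in Clock mutant livers (−0.44 ± 0.10, adjusted p = 0.0328). Ndufa13, also known as GRIM-19, read 7.67, 7.46 and 7.47 in rescue livers and 7.91, 7.90 and 8.09 in Clock mutant livers (−0.43 ± 0.11, adjusted p = 0.0448). These 3 genes too were separated on all arrays. Ndufa13 had not passed the test in Clock mutant against wild type (0.32, adjusted p = 0.0587).

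The seventh gene was Atp5e, which fell by 0.88 ± 0.21 on the log2 scale (adjusted p = 0.0377). In complexes II, III and IV none of 4, 9 and 19 genes fell in limma, with median differences of −0.20, −0.23 and −0.18, against −0.35 in complex I and −0.32 in ATP synthase. At an unadjusted p under 0.05, 1, 3 and 6 genes of those 3 complexes were lower, where 11.4% of all genes were. Several genes that had risen in Clock mutant livers came close to the threshold without passing it: Uqcrq (−0.63, adjusted p = 0.0628), Ndufa2 (−0.68, adjusted p = 0.0505), Ndufa7 (−0.60, adjusted p = 0.0602), Atp5g2 (−0.49, adjusted p = 0.0589) and Ndufs5 (−0.48, adjusted p = 0.0647). Atp5g1 (−0.07, adjusted p = 0.794) lay near the Clock mutant level. Cox4i1 was the member whose rescue arrays all read above the Clock mutant arrays (0.35 ± 0.11, adjusted p = 0.0894), and it passed when the dimmest 40% of genes were left out (adjusted p = 0.0486) and with the span trend removed (adjusted p = 0.0472), where 2.5% of all genes rose. With the span trend removed, 2 of the 7 falls passed, those of Ndufa8 (adjusted p = 0.0465) and Ndufb7 (adjusted p = 0.0439), which is 2.41% of members against 0.675% of all genes.

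Against wild type, rescue livers showed 1 called member. Cox4i1 rose by 0.73 ± 0.11 (1.66-fold, adjusted p = 0.00236), with no overlap, and the call held in all 16 alternatives. That is 1.2% of members, where 0.928% of all genes rose. None of the 83 fell, where 1.35% of all genes fell, and 4 members (4.82%) were lower at an unadjusted p under 0.05, as were 7.86% of all genes. The median difference was 0.00, against 0.01 over all genes, and members ranged from −0.35 up to 0.73. All 3 rescue arrays read above all 3 wild-type arrays for 3 members (8.95% of all genes) and below them for 8 (10.5% of all genes). The 3 were Cox4i1, Atp5g1 and Atp5md. Atp5g1 differed by 0.54 ± 0.14 (adjusted p = 0.0576) and Atp5md by 0.36 (adjusted p = 0.182). On the dimmer probe sets of Atp5md, rescue and wild-type arrays overlapped (0.26 and 0.18). A p above the threshold does not show that rescue and wild-type livers had equal levels, and with 3 mice a group the SE of a member's difference had a median of 0.13.

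The median over members of the SD between 3 arrays was 0.20 in rescue, 0.14 in Clock mutant and 0.13 in wild-type livers, and over all genes it was 0.13, 0.13 and 0.12 in the same groups. These spreads were not tested against each other. Set against each member's mean over all arrays, the median deviation over the members was 0.11, −0.23 and −0.13 on the 3 rescue arrays, 0.28, 0.07 and 0.25 on the 3 Clock mutant arrays and −0.08, −0.03 and −0.18 on the 3 wild-type arrays. Rescue replicate 1 thus lay above Clock mutant replicate 2, while the other rescue arrays lay within or below the wild-type range. Cytosolic ribosomal protein genes, which serve protein synthesis and not the chain, had a similar order: 0.09, −0.29 and −0.13 on rescue arrays, 0.27, 0.15 and 0.22 on Clock mutant arrays and −0.04, −0.03 and −0.22 on wild-type arrays. Of the 62 measured, 20 (32.3%) rose in Clock mutant against wild type, where 6.37% of all genes rose, with a median difference of 0.32. In rescue against Clock mutant 8 of the 62 fell (12.9%, where 1.2% of all genes fell), with a median of −0.31. Their median span was 3.22 kb. The part of span, or of whatever moves the ribosomal genes, in the members' result was not tested.

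**Figure D4:**
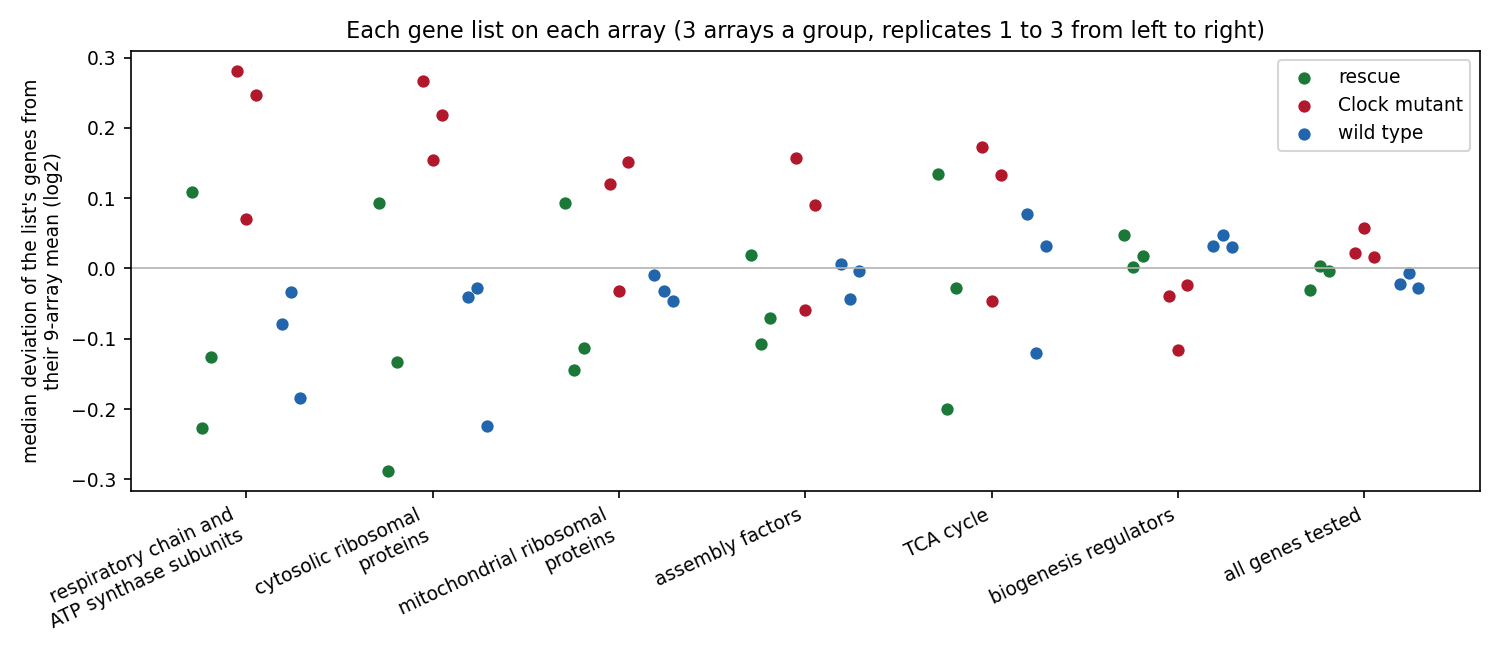
Median deviation (log2) of each gene list from its genes' means over all 9 arrays, with a point per array in the rescue, Clock mutant and wild-type groups. The respiratory chain and ATP synthase members and the cytosolic ribosomal proteins reach 0.28 and 0.27 on Clock mutant arrays, and both are lowest on rescue replicate 2.

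Genes that serve the chain without being its subunits were counted next. Of 44 measured assembly factors, 7 rose (15.9%) and 4 fell (9.09%) in Clock mutant against wild-type livers (median 0.10), so the share that fell was that of all genes (9.02%). Uqcc3, needed to assemble complex III, rose by 0.71 ± 0.16 (adjusted p = 0.00913), and the complex IV factors Coa3 (0.64, adjusted p = 0.00625) and Cox19 (0.64, adjusted p = 0.00532) rose too. Ndufaf4, an assembly factor of complex I, was lower by 0.93 on the log2 scale (−0.93 ± 0.13, adjusted p = 4.26e-04), and it remained below wild type in rescue livers (−0.62, adjusted p = 0.0216). In rescue against Clock mutant 0 assembly factors rose (2.61% of all genes rose) and 2 fell (4.55%, where 1.2% of all genes fell). The 2 were Uqcc2 (−0.76, adjusted p = 0.0272) and Cox14 (−0.45, adjusted p = 0.0412). In rescue against wild type 3 assembly factors fell (6.82%, where 1.35% of all genes fell). Of 77 mitochondrial ribosomal proteins, 11 rose (14.3%) and 4 fell (5.19%) in Clock mutant against wild type (median 0.10), and of 39 proteasome subunits 8 rose (20.5%) and 2 fell (5.13%; median 0.21), where 6.37% and 9.02% of all genes did.

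Of 25 measured regulators of mitochondrial biogenesis, 1 rose (4%, against 6.37% of all genes) and 7 fell (28%, against 9.02% of all genes) in Clock mutant against wild-type livers, and 17 did not pass the test. Their median difference was −0.19, with 14 below 0 and 11 above it. The falls were those of Tfb2m, a factor of mitochondrial transcription initiation (−0.63 ± 0.10, adjusted p = 8.95e-04), Mterf3, a mitochondrial transcription and ribosome factor (−0.61 ± 0.10, adjusted p = 0.00127), Sirt1, a deacetylase (−0.46, adjusted p = 0.0108), Yy1 (−0.37, adjusted p = 0.0209), Ppargc1a, the coactivator PGC-1alpha (−0.38, adjusted p = 0.0272), Tfam, which packages and transcribes mitochondrial DNA (−0.44, adjusted p = 0.0282), and the receptor Esrrg (−0.41, adjusted p = 0.0313). The helicase gene Twnk rose (0.37, adjusted p = 0.0414). Their median span of 26.5 kb was longer than that of the members, and falls were more frequent among long genes in general. In rescue against Clock mutant 0 of 25 passed in limma, with Ppargc1a at 0.40 ± 0.11 (adjusted p = 0.0507). Without adjustment, at a p under 0.05, 6 of the 25 were higher, where 9.65% of all genes were.

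Of 18 genes of the citric acid cycle and its entry reactions, 3 rose (16.7%) and 2 fell (11.1%) in Clock mutant against wild type (median 0.11), where 6.37% and 9.02% of all genes did. Pcx, pyruvate carboxylase, rose by 0.64 ± 0.11 (adjusted p = 0.00131) and fell in rescue against Clock mutant (−0.51, adjusted p = 0.0211). Cs, citrate synthase, rose by 0.58 ± 0.12 (adjusted p = 0.00434), and Dld, the shared lipoamide dehydrogenase, fell (−0.50 ± 0.11, adjusted p = 0.00743). Among 15 genes of electron entry and carriers, 1 rose (6.67%) and 2 fell (13.3%), which is near those shares. Slc25a4, the heart and muscle isoform of the ADP/ATP carrier, was lower in Clock mutant than in wild-type livers (−1.18 ± 0.13, adjusted p = 5.83e-05) and higher in rescue than in Clock mutant livers (0.66 ± 0.13, adjusted p = 0.0131). Etfb, a subunit of the flavoprotein that receives electrons from fatty acid oxidation, showed the opposite pattern (0.88 ± 0.19, adjusted p = 0.00603, and −0.72 ± 0.19, adjusted p = 0.0488).

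In bulk tissue fewer cells of a type and less RNA per cell cannot be told apart. Of 13 measured hepatocyte markers none passed limma's test in any comparison. At an unadjusted p under 0.05, 1 was higher in Clock mutant than in wild-type livers (16.9% of all genes were). At that threshold 1 was lower in rescue than in wild-type livers (7.86% of all genes were). The log2 of the summed unlogged levels of hepatocyte markers was 16.002 to 16.20 in rescue, 16.09 to 16.23 in Clock mutant and 15.96 to 16.12 in wild-type livers. Summed levels of the marker lists that follow are on the same scale, on which the brightest markers weigh most. Of 15 Kupffer cell and macrophage markers, 9 fell in Clock mutant against wild type (60%, where 9.02% of all genes fell). In rescue against Clock mutant 1 of the 15 rose (6.67%, where 2.61% of all genes rose). In rescue against wild type 6 fell (40%, where 1.35% of all genes fell). Their summed levels were 11.24 to 11.64 in rescue, 10.90 to 11.04 in Clock mutant and 12.08 to 12.55 in wild-type livers. Of 15 endothelial markers 8 (53.3%) fell in Clock mutant against wild type, 3 (20%) rose in rescue against Clock mutant and 2 (13.3%) fell in rescue against wild type. Without adjustment, at a p under 0.05, 11 were higher in rescue than in Clock mutant livers (9.65% of all genes were). Endothelial summed levels were 11.42 to 11.71 in rescue, 11.23 to 11.30 in Clock mutant and 11.79 to 11.93 in wild-type livers. Of 12 stellate cell markers 3 (25%) fell in Clock mutant against wild type and 3 (25%) rose in rescue against Clock mutant. Stellate summed levels were 11.62 to 11.74, 11.35 to 11.41 and 11.69 to 11.84 in the same groups. The shares of all genes in these comparisons are those given for the Kupffer cell markers. The part of these shifts in the members' differences was not tested.

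A further 25 probe sets read 17 of the members. In Clock mutant against wild type 24 of the 25 had the sign of the probe set used, with a median gap of 0.05 and a largest gap of 0.30 (Atp5md). Several of these genes have processed copies in the mouse genome, and a probe set that matches a copy as well as the gene cannot separate them, so values of members with several probe sets are uncertain to that extent.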

How the data were processed

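Liver RNA of 9 mice was measured on Affymetrix arrays. The deposited values are log2 expression per probe set, made by the authors with RMA in Affymetrix Expression Console, per the submitters' processing notes, which give no version. RMA equalises the arrays' distributions, which can mask a change shared by most genes, and it compresses dim genes. RNA was extracted with TRIzol and labelled with biotin, per the labels' protocols. Of 35556 probe sets, 21789 had a single symbol in the platform annotation, 1621 several and 12146 none. The probe set with the highest mean was kept where a gene had several (999 genes), leaving 19938 genes, none filtered. Gene identifiers of the annotation were matched to RefSeq's GRCm38.p6 table (21698 probe sets matched). Samples were grouped by label.

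A single model over the 9 arrays was fitted with limma 3.58.1 (statmod 1.5.0, R 4.3.3; figures with matplotlib 3.10.9, Python 3.11.15), with 6 residual and 8.475 prior degrees of freedom. Benjamini-Hochberg adjustment ran over all genes within each of 3 comparisons, and adjusted p under 0.05 was called. The model was tested on simulated data. The p-values measure the spread between these animals, and the number of arrays limits the precision. Replicate numbers were not used as pairs in the main model. Over all genes, same-numbered arrays correlated at −0.111 to 0.191 in their deviations from group means (−0.308 to 0.556 over the members). Not every pair exceeded 0.1. Pairs of replicates 1 and of replicates 2 lay at 0.071 to 0.191 over all genes, and those of replicates 3 at −0.111 to 0.047. Differently numbered arrays correlated at −0.256 to 0.179 (−0.681 to 0.575 over the members). These values do not decide whether same-numbered mice share more than the number. Members and gene lists were chosen with earlier results of these data known, and lists are described by counts and medians with no test. Genes named were, per comparison, all called members (or the 15 of smallest p where over 25 were called), the nuclear core subunits, complex II, redox subunits of complex III, tissue isoforms, catalytic and c subunits, called biogenesis regulators and up to 4 called genes of each other list; others named were chosen after their values were seen. Alternatives were the replicate block, leaving out the dimmest 40% of genes, repeated quantile normalization, median centring, a trended and robust prior, the mean of a gene's probe sets, removal of the lowess trend on gene span, and leaving out each array.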

Additional observations from a re-analysis of the deposited data

How the results depend on the processing

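Members called as risen in Clock mutant against wild type numbered 26. They numbered 14 after median centring (3.06% of all genes rose), 13 with the span trend removed (4.08%) and 9 to 33 when single arrays were left out (2.67% to 6.69%), and the other settings gave 26 to 37. Members called as fallen numbered 0, against 1 with the trended prior (Atp5pb; 9.96% of all genes fell) and 1 with the span trend removed (Ndufc1; 9.18%); it stayed 0 when single arrays were left out. In rescue against Clock mutant 7 fell. The count was 14 with the replicate block (1.77% of all genes fell), 17 without the dimmest 40% of genes (3.39%), 17 after quantile normalization (1.86%), 4 after median centring (0.632%), 16 with the trended prior (2.09%), 2 with the span trend removed (0.675%) and 0 to 20 when arrays were left out (0.231% to 1.29%). None rose, against 1 (Cox4i1) without the dimmest genes (6.46% of all genes rose) and 1 with the span trend removed (2.5%). In rescue against wild type 1 rose, against 2 each with the replicate block (1.04% of all genes), without the dimmest genes (2.26%), after quantile normalization (1.14%) and with the trended prior (1.35%), and 1 to 2 when arrays were left out; 0 fell in every setting. The members' median difference kept its direction in Clock mutant against wild type (0.22 to 0.39) and rescue against Clock mutant (−0.37 to −0.17), and lay between −0.09 and 0.07 in rescue against wild type. The replicate block raised the count of members that rose in Clock mutant against wild type to 31. The labels give same-numbered mice only a shared number, and whether they share more cannot be told. No value reversed its call. Dim members have compressed differences, and leaving out 1 array of 3 also lowers the power to call.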
